A study of Mus musculus with 20 samples.

Results

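The step from common myeloid progenitors (CMPs) to granulocyte-macrophage progenitors (GMPs) was measured in mice with floxed Rptor alleles as the difference between 3 GMP and 3 CMP arrays titled CreER-Raptor, out of 20 arrays in the series. Cells of both populations came by sorting from bone marrow of females with a C57BL/6 background and were lysed without culture, and the genotype is given in the series as CreER-Rptor-flox/flox (Rptor cells here). The same step in wild-type (WT) mice, from 3 GMP and 3 CMP arrays handled in the same way, is shown beside it, and 8 arrays of cultured lineage-negative cells given M-CSF (10 ng/ml for 12 h), 4 of each genotype, entered only the estimate of the spread. The sources used here do not say which promoter drives CreER, whether or when tamoxifen was given, whether the WT mice carried CreER, how old the mice were, which surface markers were gated, or whether each array is a different mouse. P-values therefore cover only how far these arrays spread, and that spread may be technical.

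CMPs can give rise to granulocytes, monocytes, red cells and platelets, and GMPs have lost the red cell and platelet branches. In the bone marrow the step goes with loss of the factors GATA1 and KLF1, which drive red cell genes, and gain of C/EBP factors, PU.1 and GFI1, which drive the proteins of neutrophil granules. Rptor encodes Raptor, the scaffold of mTORC1, a kinase complex that couples growth factor and nutrient signals to cell growth, and in CreER mice a floxed allele is cut when the Cre enzyme is activated.

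The 6 arrays fitted the CMP and GMP part of their labels, by markers chosen with earlier results of these data known. The genotype part was not checked. Of 9 tested genes that mark CMPs against GMPs, 7 were higher in the Rptor CMPs by the test used throughout and 0 were lower, and Gata2 and Procr did not pass. Of 13 that mark GMPs, 11 were higher in the Rptor GMPs and 0 were lower, and Csf1r and Irf8 did not pass. All values are deposited log2 signals of 1 probe set per gene, in which 1 unit is a 2-fold difference, and a gene is called at a limma adjusted p under 0.05. Arrays of each of the 4 freshly sorted groups correlated at 0.988 to 0.993 with their fellows. Rptor CMP replicate 3 was the lowest Rptor CMP array for the mean of the erythroid and mitosis lists below and the highest for the granule, monocyte and megakaryocyte lists, and Rptor GMP replicate 2 was the highest Rptor GMP array for the erythroid list.

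In the Rptor mice 4639 of 16638 tested genes (27.9%) differed between GMPs and CMPs, 2083 higher in GMPs (12.5%) and 2556 lower (15.4%). The counts of each gene list below are to be read against these shares. Without Rptor GMP replicate 2 the number was 3307, with the fold also required to reach 1.5 it was 2312, and with array weights it was 7123. The median difference of all genes was 0.04 log2 units. The 3 GMP arrays lay entirely above the 3 CMP arrays for 3733 genes (22.4%) and entirely below for 3292 (19.8%). Differences of at least 2-fold were found upward in 307 genes and downward in 426. The Rptor probe set itself read 8.20, 8.37 and 8.45 in Rptor CMPs and 9.25, 9.24 and 8.85 in Rptor GMPs, so all 3 GMP arrays lay above all 3 CMP arrays. The difference was 0.77 ± 0.13 (SE, limma adjusted p = 8.49e-05). The exact permutation test of the same arrays, two-sided, gave p = 0.1, the smallest that 3 against 3 arrays allow. Where its probes lie relative to the floxed part was not used here, so the probe set checks no label. Mtor, the kinase of the complex, was 0.40 ± 0.10 higher in GMPs (adjusted p = 0.00393), and Rictor, which belongs to mTORC2, differed by -0.29 without passing. These rises did not extend to the list of mTORC1 and its regulators, where 4 of 27 tested genes rose and 6 fell (median -0.19). WT mice showed an Rptor difference of 0.65, and the 2 genotypes' differences were not distinguished (adjusted p = 0.861).

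Of the 15 called genes of largest fall whose groups do not overlap, 9 were members of the erythroid list and 6, Slc25a21, Bex4, Abcb4, Ces2g, Clca3a1 and Myo1d, were in none of the lists. Slc25a21, a mitochondrial carrier of dicarboxylic acids, read 8.80, 9.35 and 8.24 in Rptor CMPs and 3.81, 4.34 and 3.85 in Rptor GMPs, the latter close to the filter on dim genes at 3.86. That is a fall of 4.79 ± 0.22 log2 units, or 27.7-fold (adjusted p = 4.52e-12). Bex4 read 9.11, 9.99 and 9.15 in CMPs and 4.52, 5.09 and 4.88 in GMPs, a fall of 24.1-fold. For both genes the gap between the groups was several times the spread within them. Kel, the Kell blood group protein, read 9.48, 9.69 and 8.83 in CMPs and 4.89, 5.41 and 4.43 in GMPs (-4.42 ± 0.28). Rhag, a partner of the Rh blood group proteins, read 10.82, 11.30 and 10.28 in CMPs and 5.74, 7.62 and 5.77 in GMPs (-4.42 ± 0.38). Here GMP replicate 2 stood nearly 2 units above the other GMP arrays and still far below every CMP array.

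The other genes of largest fall had adjusted p of at most 1.32e-08. They were the red cell membrane protein Ermap (-4.08), the water channel Aqp1 (-4.08), the lipid transporter Abcb4 (-4.06), Tspo2 (-3.98), the carboxylesterase Ces2g (-3.94), the carbonic anhydrase Car2 (-3.85), the Rh antigen gene Rhd (-3.78), Clca3a1 (-3.69), the tetraspanin Tspan33 (-3.46), the myosin Myo1d (-3.36) and Mfsd2b (-3.31), which carries sphingosine-1-phosphate out of red cells and platelets.

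Of the 15 genes of largest rise, chosen in the same way, 5 were in the granulocyte, eosinophil or basophil lists (Prg3, Prg2, Cebpe, Fcnb and Prss34), Thbs1 was in the megakaryocyte list, and the other 9 were in none. Olr1, a scavenger receptor for oxidised lipoproteins, read 5.55, 6.28 and 5.76 in Rptor CMPs and 9.22, 9.43 and 8.79 in Rptor GMPs. It rose by 3.28 ± 0.24, or 9.72-fold (adjusted p = 1.77e-09). Mgam, a starch-digesting enzyme, read 6.78, 7.16 and 7.42 in CMPs and 9.83, 9.84 and 9.95 in GMPs (2.75 ± 0.25). The GMP arrays of Mgam were nearly alike. Abca13, an ATP-driven transporter, read 4.72, 5.28 and 5.63 in CMPs and 7.83, 8.01 and 8.02 in GMPs (2.74 ± 0.25). Prss34, a protease of basophils and mast cells, read 8.50, 8.87 and 9.35 in CMPs and 11.37, 11.57 and 11.49 in GMPs (2.57 ± 0.21).

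The remaining genes of largest rise, with adjusted p of at most 6e-05, were the lectin receptor gene Clec4b2 (2.68), the eosinophil granule genes Prg3 (2.61) and Prg2 (2.39), the lipase gene Lipg (2.52), the ficolin gene Fcnb (2.47), Svep1 (2.46), the granulocyte factor Cebpe (2.24), thrombospondin 1 (Thbs1, 2.24), Prom1 (2.23), the interleukin-1 decoy receptor Il1r2 (2.20) and the fatty acid receptor Gpr84 (2.19). Averaged over all probe sets of the gene, the rise of Svep1 was 1.29.

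The bases before the start of 3 genes from each end of the ranking are shown. Each holds a GATA site, the sequence read by GATA1 and GATA2. The 3 are those of largest rise or fall that hold any of the 3 motifs searched. The sequences are RefSeq's (GRCm38.p6), 250 bases up to the gene start, read 5′ to 3′ on the gene's strand, with AGATAA or its reverse complement TTATCT in capitals. Other forms, such as the TGATAA in Kel and Ces2g, were not searched and are not marked. Olr1 lies at chr6:129507166-129507415 on the minus strand, Mgam at chr6:40628581-40628830 on the plus strand, Prss34 at chr17:25298144-25298393 on the plus strand, Kel at chr6:41704326-41704575 on the minus strand, Ces2g at chr8:104961468-104961717 on the plus strand and Rhd at chr4:134864286-134864535 on the plus strand.
Olr1: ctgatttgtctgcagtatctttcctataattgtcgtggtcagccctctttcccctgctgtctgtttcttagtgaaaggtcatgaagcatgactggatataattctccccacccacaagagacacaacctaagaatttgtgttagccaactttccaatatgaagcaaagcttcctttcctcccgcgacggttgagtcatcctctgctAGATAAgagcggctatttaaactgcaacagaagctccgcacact
Mgam: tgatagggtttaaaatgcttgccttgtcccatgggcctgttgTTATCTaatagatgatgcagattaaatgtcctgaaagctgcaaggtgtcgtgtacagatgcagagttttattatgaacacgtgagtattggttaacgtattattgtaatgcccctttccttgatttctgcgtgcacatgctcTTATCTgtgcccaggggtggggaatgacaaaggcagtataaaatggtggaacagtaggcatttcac
Prss34: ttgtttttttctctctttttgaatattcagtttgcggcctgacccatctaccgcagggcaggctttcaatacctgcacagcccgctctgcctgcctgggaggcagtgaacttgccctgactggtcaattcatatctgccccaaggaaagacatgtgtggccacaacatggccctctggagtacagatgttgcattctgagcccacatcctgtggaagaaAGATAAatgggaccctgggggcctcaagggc
Kel: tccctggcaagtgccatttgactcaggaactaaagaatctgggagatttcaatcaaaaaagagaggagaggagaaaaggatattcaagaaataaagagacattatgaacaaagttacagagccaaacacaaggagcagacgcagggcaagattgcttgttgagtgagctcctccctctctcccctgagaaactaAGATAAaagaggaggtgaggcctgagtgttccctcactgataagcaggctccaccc
Ces2g: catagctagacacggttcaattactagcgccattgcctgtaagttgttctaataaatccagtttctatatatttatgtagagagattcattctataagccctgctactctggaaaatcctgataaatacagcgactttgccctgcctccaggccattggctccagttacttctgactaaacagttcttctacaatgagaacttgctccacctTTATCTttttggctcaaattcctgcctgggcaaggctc
Rhd: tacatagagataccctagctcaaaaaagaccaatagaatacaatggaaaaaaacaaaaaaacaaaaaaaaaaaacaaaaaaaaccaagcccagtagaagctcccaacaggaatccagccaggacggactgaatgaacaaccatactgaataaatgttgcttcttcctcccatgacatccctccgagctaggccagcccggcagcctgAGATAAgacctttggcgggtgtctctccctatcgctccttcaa
In Olr1, Mgam and Prss34, which rose, the nearest marked match starts 44, 66 and 31 bases before the gene start, and Mgam has another at 208. In Kel, Ces2g and Rhd, which fell, it starts 56, 38 and 43 bases before. These genes were chosen for holding a motif, so its presence in them is no result.

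Over the 100 called genes of largest rise, 77 had a promoter entry and 16.88% of those held the GATA letters on either strand. Of the 100 of largest fall, 73 had an entry and 12.33% held them, against 6.95% of 12921 promoters of tested genes. The C/EBP letters TTNNGCAA (reverse complement TTGCNNAA) were in 12.99% of the rises, 10.96% of the falls and 7.97% of all. The ETS letters GAGGAAGT (ACTTCCTC), read by PU.1 and its relatives, were in 5.19%, 2.74% and 2.41%. Both ends had fewer G and C bases than all promoters (medians of 55.6% and 56.0% against 58.4%). The 3 motifs were searched on both strands and counted separately, so a stretch can count for more than 1 of them. These shares are descriptions with no test.

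Of 27 tested erythroid genes, 25 fell from CMPs to GMPs in Rptor mice and 0 rose, with a median difference of -2.80 log2 units against 0.04 for all genes. The mean of the list on each array was 8.67, 8.97 and 8.25 in Rptor CMPs and 5.88, 6.47 and 5.73 in Rptor GMPs. All CMP arrays were thus more than 1.5 units above all GMP arrays. Besides Mfsd2b, Car2 and Aqp1, the amino acid transporter Slc38a5 was among the clearest falls (-3.15 ± 0.18, adjusted p = 7.78e-11). With any 1 of the 6 arrays left out, 25 genes of the list were called lower and 0 higher. In bulk samples fewer cells of a type and less RNA per cell cannot be told apart.

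The heme synthesis list, which holds enzymes of the pathway and mitochondrial membrane proteins, fell less evenly. Of 12 tested genes 7 fell and 2 rose, with a median of -0.58 (-0.39 without Rptor CMP replicate 2). Cpox and Alad, enzymes of the pathway, fell by 1.58 ± 0.18 and 1.70 ± 0.20, and Urod, another of its enzymes, fell by 0.91 ± 0.13. Alas1, the form of the first enzyme that is not specific to red cells, went the other way. It read 8.08, 8.17 and 8.30 in Rptor CMPs and 9.35, 9.39 and 9.21 in Rptor GMPs, a rise of 1.14 ± 0.16 (adjusted p = 2.27e-05). The other member that rose, named here after its value was seen, was the mitochondrial carrier gene Slc25a37 (0.72 ± 0.11, adjusted p = 4.22e-05).

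Megakaryocyte and platelet genes were lower in GMPs for 13 of 27 tested members and higher for 2, with a median of -0.45. Without Rptor CMP replicate 3, the highest CMP array for this list, 8 were lower. Pf4, the platelet chemokine, read 7.60, 7.93 and 8.24 in Rptor CMPs and 5.32, 5.92 and 5.82 in Rptor GMPs (-2.24 ± 0.22, adjusted p = 1.44e-07). The thrombin receptor F2r fell by 1.97 ± 0.17 and the platelet glycoprotein Gp5 by 1.77 ± 0.18. Thbs1, which is stored in platelets and also made by monocytes, rose, with 7.56, 7.64 and 7.56 in CMPs and 9.96, 9.75 and 9.76 in GMPs. The other member that rose, named here after its value was seen, was Nbeal2, which granule formation in platelets needs (1.26 ± 0.17, adjusted p = 7.36e-06).

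**Figure D1:**
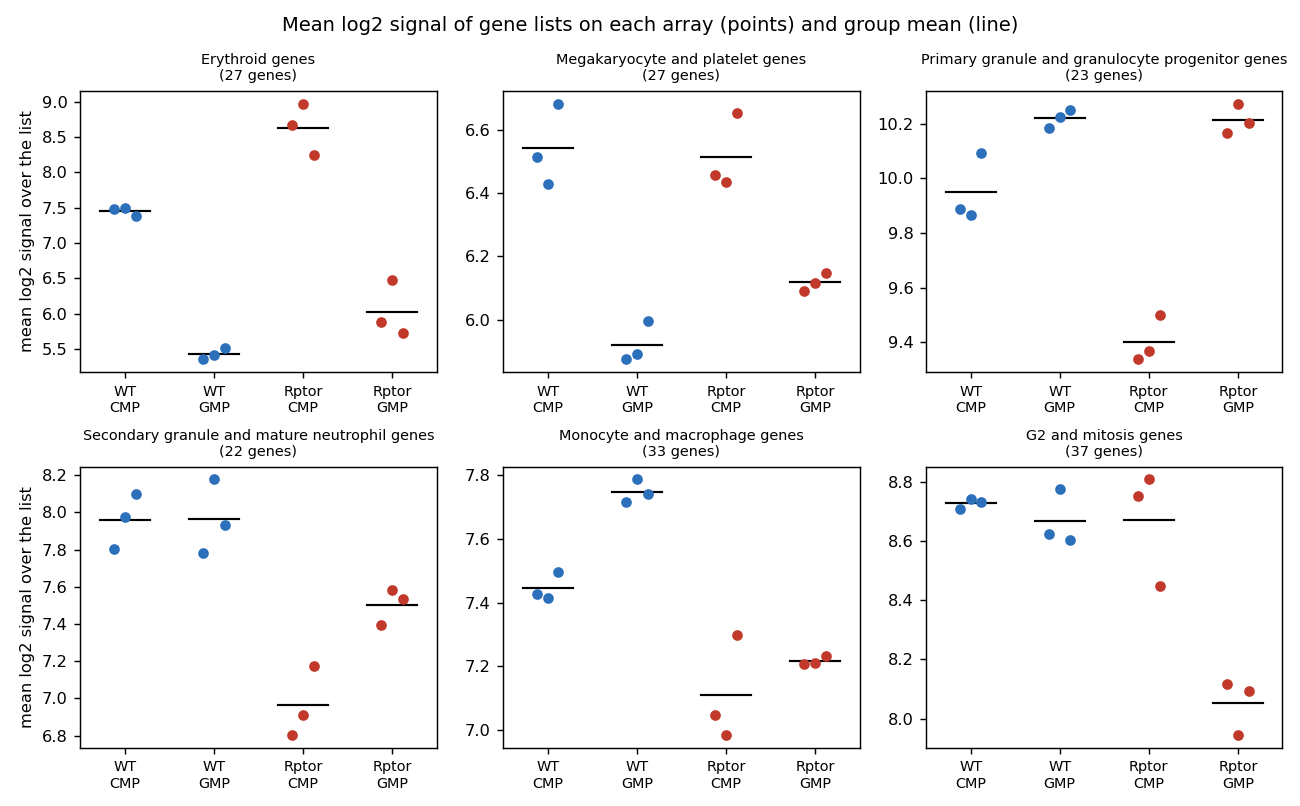
Mean log2 signal over the genes of 6 lists on each array (points, y axis) for the 4 freshly sorted groups (x axis), with the mean of each group as a line. The Rptor GMP arrays lie below all Rptor CMP arrays for the erythroid list (5.73 to 6.47 against 8.25 to 8.97) and for the mitosis list (7.94 to 8.12 against 8.45 to 8.81), and above them for the primary granule list (10.17 to 10.27 against 9.34 to 9.50).

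The transcription factors of the megakaryocyte and erythroid branches fell in 9 of 20 tested cases and rose in 2. Klf1, which switches on adult red cell genes, read 8.68, 9.12 and 8.56 in Rptor CMPs and 5.65, 6.35 and 5.16 in Rptor GMPs, and fell by 3.07 ± 0.25 (8.39-fold, adjusted p = 7.6e-09). Gfi1b, a repressor needed for red cells and platelets, fell by 2.88 ± 0.24. Zfpm1, the GATA1 partner FOG1, fell by 2.22 ± 0.17. Gata1 read 6.76, 7.10 and 6.50 in CMPs and 4.96, 5.41 and 5.24 in GMPs (-1.58 ± 0.15, adjusted p = 6.61e-08). The smaller falls were those of Bcl11a (-0.84), Tal1 (-0.49), Meis1 (-0.46), Lmo2 (-0.43) and Ldb1 (-0.41), of which those of Tal1 (adjusted p = 0.0123) and Meis1 (0.0139) were lost when certain single arrays were left out (for Tal1, Rptor CMP replicate 2 with 0.056 or Rptor GMP replicate 1 with 0.06; for Meis1, Rptor CMP replicate 1 with 0.056 or replicate 3 with 0.071).

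Other factors of stem cells and of these branches did not follow. Gata2, active in stem cells, mast cells and early megakaryocytes, read 8.50, 8.25 and 8.71 in Rptor CMPs and 8.39, 8.71 and 8.35 in Rptor GMPs, with overlapping groups and a difference of 0.00 ± 0.19. Lyl1, a relative of Tal1, rose by 1.02 ± 0.13 (adjusted p = 5.36e-06), and Fli1, an ETS factor of megakaryocytes, rose by 0.70 ± 0.11 (4.79e-05). Runx1 (0.08), Myb (0.14), Nfe2 (0.06) and Cbfa2t3 (-0.14) did not pass the test.

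Of 16 tested transcription factors of the granulocyte and monocyte branches, 9 rose and 0 fell, with a median of 0.48. Cebpe, needed for late granulocyte formation, read 6.53, 6.93 and 6.27 in Rptor CMPs and 8.79, 9.16 and 8.50 in Rptor GMPs, a rise of 2.24 ± 0.17 (4.73-fold, adjusted p = 5.25e-09). Gfi1, which favours neutrophils over monocytes, rose by 1.53 ± 0.20. Cebpd rose by 1.12 ± 0.16. Spi1, the gene of PU.1, read 6.90, 6.63 and 6.98 in CMPs and 7.86, 7.85 and 7.73 in GMPs (0.98 ± 0.12). Cebpa, the factor without which GMPs do not form, rose by 0.88 ± 0.13 (adjusted p = 1.97e-05). In all 5 the GMP arrays lay above every CMP array.

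Smaller rises were those of Nfil3 (0.63, adjusted p = 0.00492), Ets2 (0.62, 0.0132), Cebpb (0.53, 0.0155) and Klf4 (0.42, 0.0447). Leaving out 1 array ended the call for Nfil3 (adjusted p = 0.052 without Rptor CMP replicate 2), for Ets2 (0.055 without Rptor CMP replicate 1, 0.052 without Rptor GMP replicate 3) and for Cebpb (0.062 without Rptor CMP replicate 2, 0.053 without Rptor GMP replicate 2). That of Klf4, a monocyte factor, was lost without any of 4 arrays: Rptor CMP replicate 2 (0.122), Rptor CMP replicate 3 (0.148), Rptor GMP replicate 1 (0.279) or Rptor GMP replicate 2 (0.1375). Irf8, the factor that directs GMPs to monocytes and dendritic cells, read 8.06, 7.64 and 7.79 in Rptor CMPs and 7.88, 7.56 and 6.97 in Rptor GMPs, with overlapping groups (-0.36 ± 0.18, adjusted p = 0.154).

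Receptors for growth factors and cytokines rose in 11 of 21 tested cases and fell in 4. Of all genes 12.5% were higher and 15.4% lower in the fit of all arrays, so the falls were near the general share. Among the rises were Csf2ra, the ligand-binding chain for GM-CSF, by 1.64 ± 0.15, Csf3r, the receptor for G-CSF, by 1.32 ± 0.20, and Il6ra by 1.46 ± 0.13. Csf3r read 9.59, 9.37 and 9.59 in CMPs and 10.95, 10.88 and 10.68 in GMPs, without overlap. The tumour necrosis factor receptors Tnfrsf1b (1.34) and Tnfrsf1a (1.12), Csf2rb (0.70), Ifngr1 (0.61) and Il3ra (0.47) also rose. The rises of Csf2rb2 (0.62, adjusted p = 0.0222), Ifngr2 (0.35, 0.0209) and Ifnar2 (0.32, 0.0133) were small, and their adjusted p rose to 0.1232, 0.1325 and 0.07435 without Rptor CMP replicate 2.

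Epor, the erythropoietin receptor, had the largest change of any receptor in the list. It read 8.84, 9.34 and 8.63 in Rptor CMPs and 5.89, 6.37 and 5.38 in Rptor GMPs, and fell by 3.06 ± 0.22 (8.32-fold, adjusted p = 1.74e-09). Il31ra fell by 1.73 ± 0.22 and Flt3, a receptor of multipotent and lymphoid progenitors, by 0.96 ± 0.18. Il1r1 fell by 0.91 ± 0.26 with overlapping groups (adjusted p = 0.0111), a call lost without Rptor CMP replicate 3 (0.088), Rptor GMP replicate 1 (0.059) or Rptor GMP replicate 2 (0.093). Csf1r, the receptor for M-CSF, read 7.49, 7.06 and 7.43 in CMPs and 7.36, 7.32 and 7.15 in GMPs. The groups overlapped and the difference was -0.05 ± 0.11 (adjusted p = 0.798). Kit, the stem cell factor receptor (-0.09), and Il5ra, the receptor chain of eosinophils (0.09), also did not pass.

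**Figure D2:**
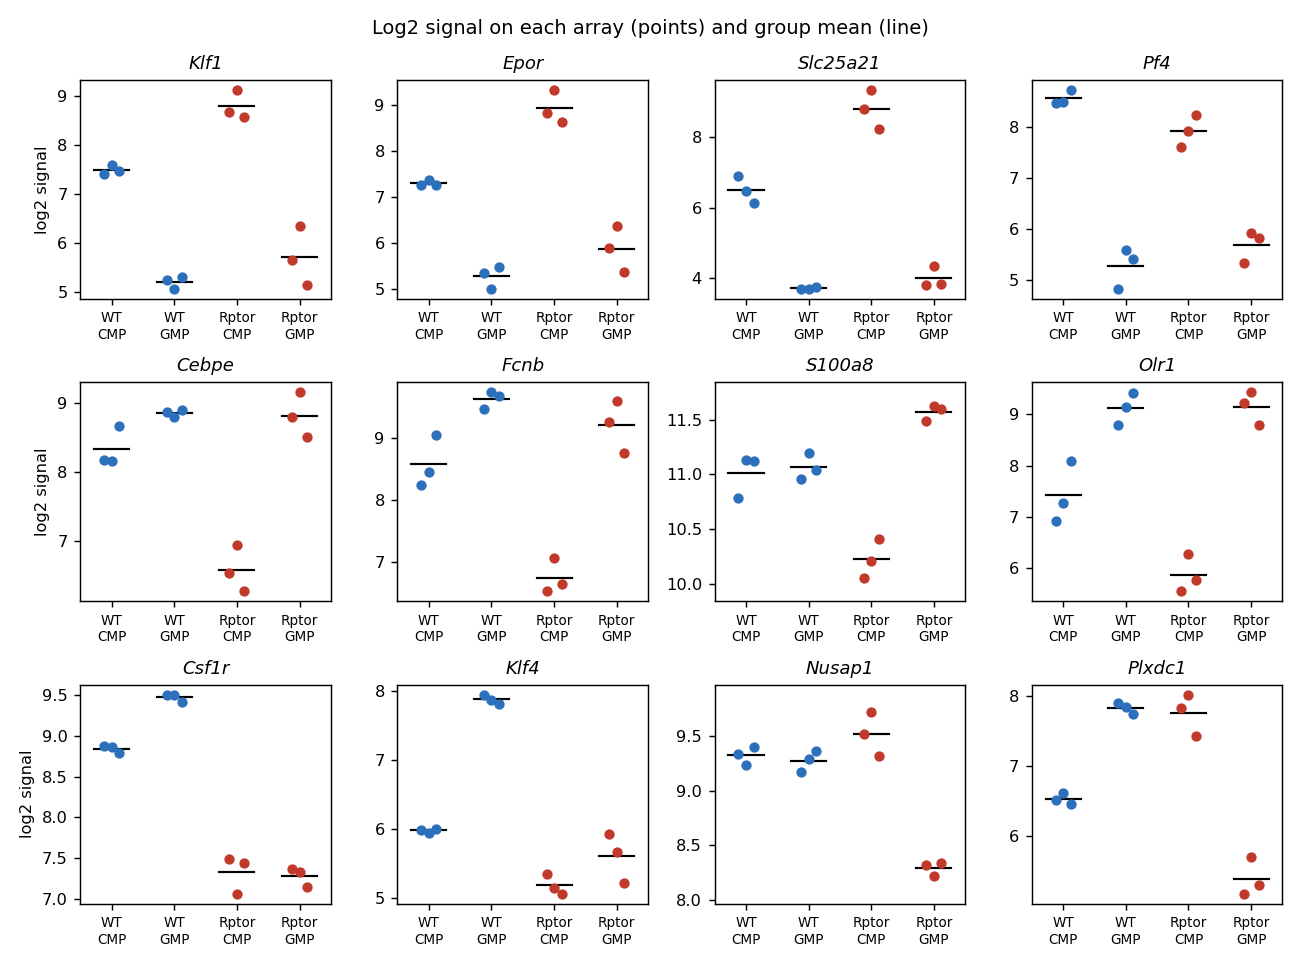
Log2 signal of 12 genes on each of the 12 freshly sorted arrays (points, y axis) by group (x axis), with the group mean as a line. In the Rptor groups Klf1, Epor, Slc25a21, Pf4, Nusap1 and Plxdc1 have all GMP arrays below all CMP arrays, Cebpe, Fcnb, S100a8 and Olr1 have them above, and Csf1r overlaps at 7.06 to 7.49.

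The list of primary granule and granulocyte progenitor genes, which holds the enzymes that neutrophil precursors pack first and other genes of these cells, rose for 20 of 23 tested members, and 0 fell. The list's median was 0.75 and its mean on each array was 9.34, 9.37 and 9.50 in Rptor CMPs and 10.17, 10.27 and 10.20 in Rptor GMPs. Clec12a, an inhibitory lectin receptor, read 8.16, 8.22 and 8.46 in CMPs and 9.94, 10.06 and 9.87 in GMPs (1.67 ± 0.10, 3.19-fold, adjusted p = 1.23e-10). Fcnb read 6.52, 7.06 and 6.64 in CMPs and 9.27, 9.61 and 8.76 in GMPs. The protease inhibitor Slpi rose by 1.33 ± 0.13 and Igsf6 by 1.03 ± 0.10. The granule enzymes themselves, named after their values were seen, rose by less: myeloperoxidase (Mpo) by 0.51 ± 0.09, and the proteases Elane by 0.75 ± 0.12, Prtn3 by 0.72 ± 0.10 and Ctsg by 0.43 ± 0.09.

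Secondary granule and mature neutrophil genes, which are switched on later, rose for 10 of 22 tested members and fell for 0, with a median of 0.48. S100a8, a calcium-binding protein of neutrophils and monocytes, read 10.06, 10.21 and 10.41 in Rptor CMPs and 11.49, 11.63 and 11.60 in Rptor GMPs (1.34 ± 0.11, 2.54-fold, adjusted p = 1.94e-08). The leukotriene B4 receptor Ltb4r1 rose by 1.77 ± 0.18, Wfdc21 by 1.46 ± 0.19 and the chitinase-like gene Chil3 rose as well. The 12 members that did not pass lay between -1.07 and 0.52.

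Of 9 tested eosinophil genes 7 rose and 0 fell, with a median of 1.19. Prg2, the major basic protein of eosinophil granules, read 7.59, 8.56 and 8.33 in Rptor CMPs and 10.32, 10.55 and 10.79 in Rptor GMPs (2.39 ± 0.24, adjusted p = 2.6e-07). Its relative Prg3 read 5.41, 5.87 and 5.69 in CMPs and 7.96, 8.37 and 8.47 in GMPs. Siglecf, a surface lectin of eosinophils, rose by 0.68 ± 0.15. The list also holds Cebpe, which neutrophils need too.

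Of 18 tested mast cell and basophil genes 8 rose and 4 fell (5 and 3 without Rptor GMP replicate 2). Over all genes 12.5% were higher and 15.4% lower in the fit of all arrays, so the falls did not stand out. Besides Prss34, Cyp11a1, the first enzyme of steroid synthesis, rose by 1.43 ± 0.21 (0.82 averaged over its probe sets) and the receptor Cd200r3 by 1.00 ± 0.15. The cytokine gene Il4 fell by 1.24 ± 0.19, from 5.76, 6.71 and 6.38 to 4.93, 5.16 and 5.04. The lists of eosinophil and of mast cell and basophil genes had array means of 5.33 to 5.57 and 6.70 to 7.14 in CMPs and of 6.57 to 6.79 and 7.08 to 7.27 in GMPs. Whether cells of these types were within the gates was not tested.

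Monocyte and macrophage genes did not move as a group. Of 33 tested genes 7 rose and 2 fell (1 without Rptor CMP replicate 3, Rptor GMP replicate 1 or Rptor GMP replicate 2), with a median of -0.05 whose sign turned under 1 alternative (0.05), and the array means overlapped, with 7.05, 6.99 and 7.30 in Rptor CMPs and 7.21, 7.21 and 7.23 in Rptor GMPs. Ly6c2, a surface protein of monocytes that granulocyte progenitors also carry, rose from 10.82, 11.07 and 11.04 to 12.15, 12.16 and 12.03 (1.14 ± 0.11, adjusted p = 7.61e-08). Fibronectin (Fn1) rose by 1.32 ± 0.17, the oxidase subunit Cybb by 1.03 ± 0.13 and the lipopolysaccharide receptor Cd14 by 1.18 ± 0.19. Toll-like and C-type lectin receptors rose for 9 of 23 and fell for 1, Cd180 (-0.53 ± 0.14). Clec5a (1.57), Tlr1 (1.05) and the adaptor Myd88 (0.80) were among the rises.

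The lists of other cell types are given beside the shares over all genes in the fit of all arrays, 12.5% higher and 15.4% lower. Of 17 dendritic cell and MHC class II genes 5 fell and 1 rose, led by the falls of Zbtb46, a factor of classical dendritic cells (-1.11 ± 0.13), and of the class II chains H2-Eb1 (-1.48 ± 0.22) and H2-Ab1 (-0.98 ± 0.19). Of 11 lymphoid progenitor genes 4 fell and 2 rose, with Lax1 at 1.32 ± 0.16, Blnk, an adaptor of B cell receptor signalling, at -1.25 ± 0.21 and Flt3 at -0.96 ± 0.18. Of 16 B cell genes 2 rose and 1 fell, with array means of 5.26 to 5.31 in Rptor CMPs and 5.41 to 5.49 in Rptor GMPs. Of 18 T and NK cell genes 1 rose and 2 fell, with array means of 4.84 to 4.97 and 4.85 to 4.87, and 1 fell without Rptor CMP replicate 1 or 3 or Rptor GMP replicate 1 or 3 and 0 without Rptor GMP replicate 2. Of 27 stem and multipotent progenitor genes 7 fell and 1 rose. Angpt1, a growth factor of stem cells, read 7.91, 7.84 and 8.01 in CMPs and 5.62, 5.55 and 5.81 in GMPs (-2.26 ± 0.14, or -1.21 averaged over its probe sets). Ctla2a fell by 2.58 ± 0.20 and Mllt3, which maintains stem cells, by 1.63 ± 0.13, while Erg, another stem cell factor, rose by 0.69 ± 0.14.

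**Figure D3:**
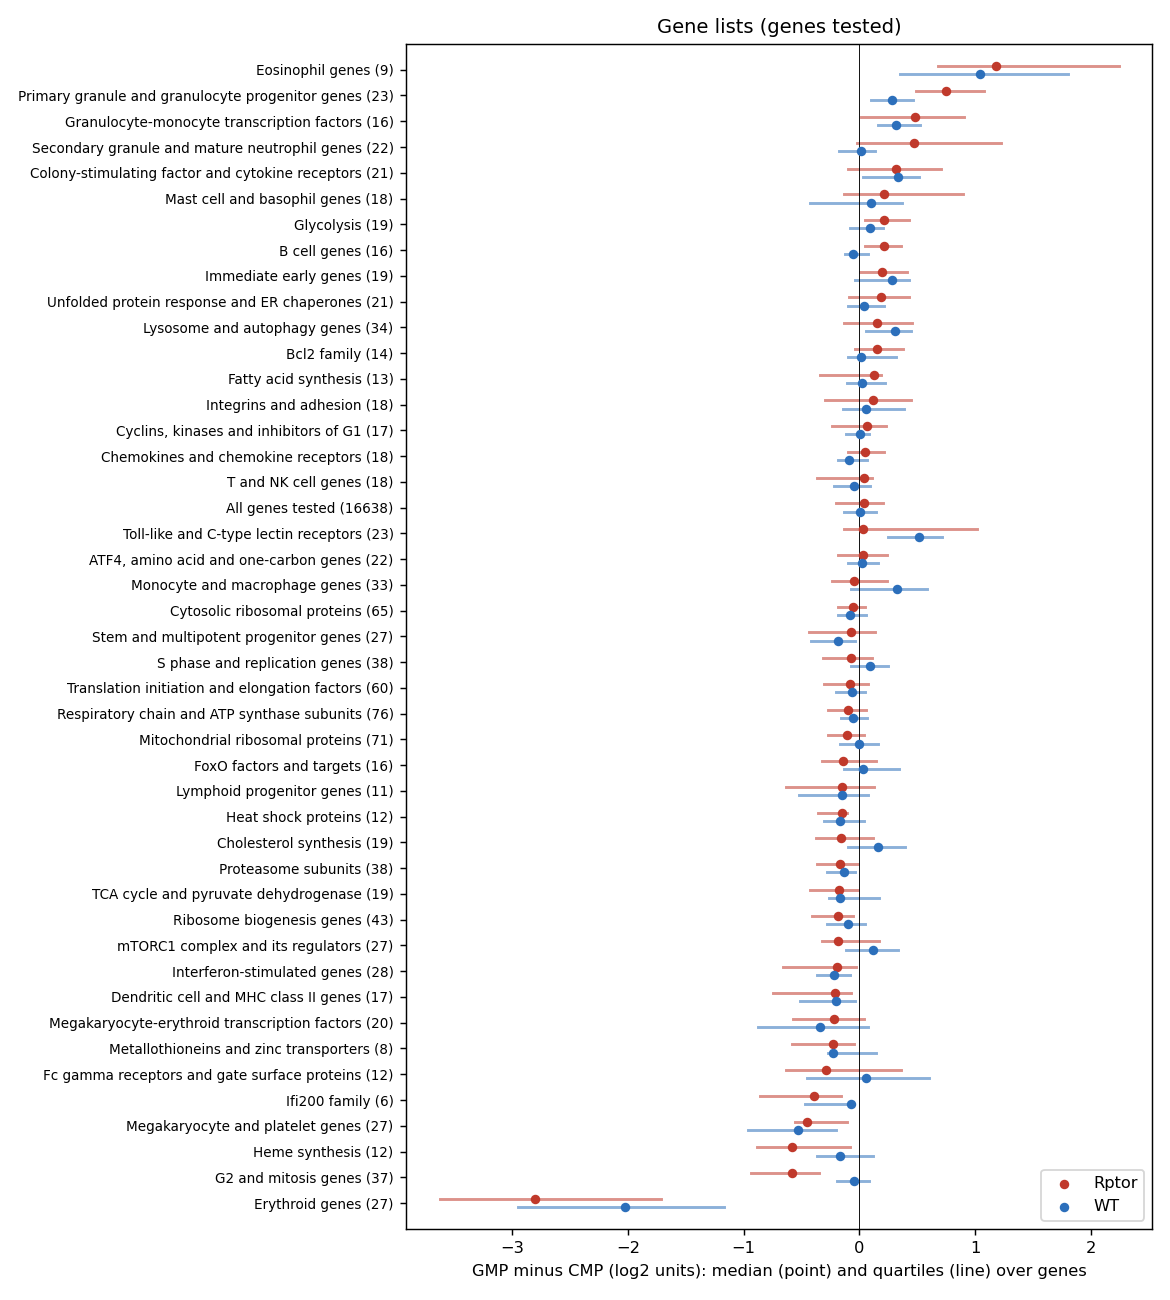
Difference between GMP and CMP arrays (x axis, log2 units) for each list with tested genes, as the median over its genes (point) and the range from the lower to the upper quartile (line), in Rptor and WT mice. The Rptor medians run from -2.80 for erythroid genes to 1.19 for eosinophil genes, with all genes tested at 0.04.

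Genes of G2 and mitosis were lower in Rptor GMPs than in Rptor CMPs almost without exception. Of 37 tested genes 30 fell and 0 rose, with a median of -0.58, and all 37 differences were below 0. Leaving out single arrays left 24 to 30 falls. The mean of the list was 8.75, 8.81 and 8.45 on the CMP arrays and 8.12, 7.94 and 8.09 on the GMP arrays. Nusap1, a spindle protein, read 9.52, 9.72 and 9.31 in CMPs and 8.32, 8.22 and 8.34 in GMPs (-1.23 ± 0.11, adjusted p = 5.59e-08). The centromere genes Cenpa (-1.22 ± 0.12), Cenpe (-1.22 ± 0.16) and Cenpf (-1.05 ± 0.13) fell as well.

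Genes of S phase showed no such shift. Over all genes, 12.5% were higher and 15.4% lower in the fit of all arrays. Of 38 tested, 5 rose and 9 fell, with a median of -0.07, and single arrays moved the counts to 3 and 8 (without Rptor CMP replicate 1), 4 and 4 (Rptor CMP replicate 2), 2 and 8 (Rptor CMP replicate 3), 2 and 6 (Rptor GMP replicate 1) and 1 and 5 (Rptor GMP replicate 2). The replicative polymerase subunit Pola1 fell by 0.74 ± 0.14, the nucleotide reductase subunit Rrm1 by 0.40 ± 0.10 and the histone mRNA binder Slbp by 0.40 ± 0.10, and the replication fork gene Cdc45 rose by 0.47 ± 0.11. Of 17 G1 cyclins, kinases and inhibitors 2 rose and 3 fell, close to the shares over all genes, so the list did not stand out. The inhibitor Cdkn1b, which holds cells in G1, fell by 0.87 ± 0.17 (from 6.64, 6.58 and 6.54 to 5.74, 5.41 and 5.98), and Cdkn2c, another inhibitor, by 0.69 ± 0.18 (a call lost without Rptor GMP replicate 2, adjusted p = 0.056). Both rises of that list were lost without Rptor CMP replicate 1 or Rptor GMP replicate 1, and 1 of them without each of the other 4 arrays.

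**Figure D4:**
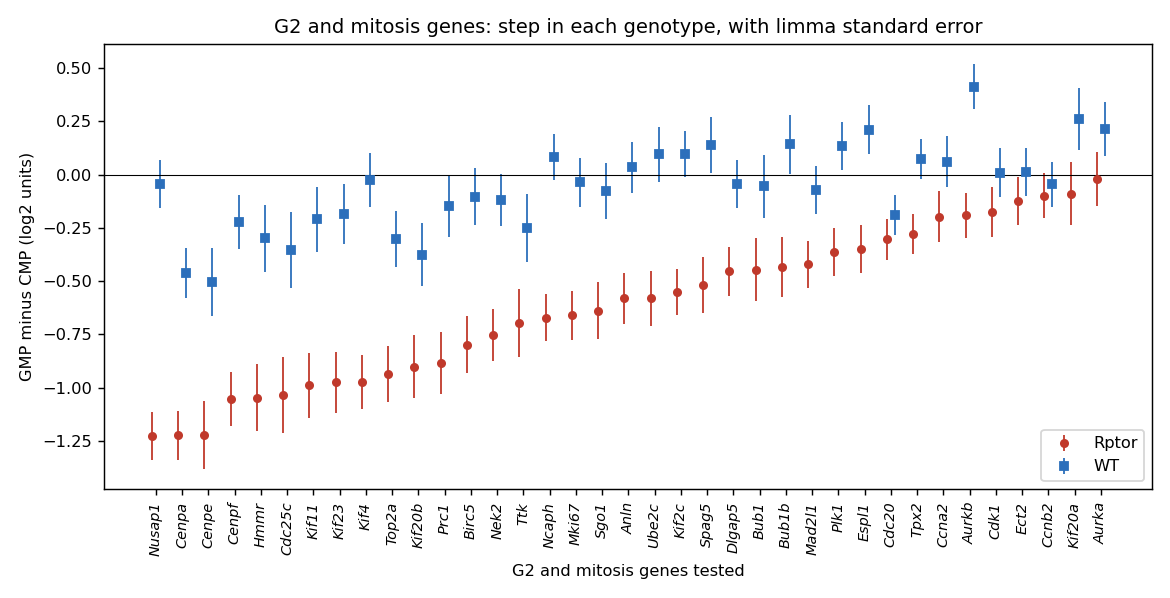
Difference between GMP and CMP arrays (y axis, log2 units, bars showing the limma standard error) for the 37 tested G2 and mitosis genes (x axis) in Rptor mice (circles) and WT mice (squares), in the order of the Rptor value. The Rptor points are all below 0, from -1.23 for Nusap1 up to -0.02.

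Chaperones and regulators of the endoplasmic reticulum, where granule proteins are folded, rose for 8 of 21 tested genes and fell for 1. Xbp1, a factor of secretory cells, read 10.39, 10.38 and 10.38 in Rptor CMPs and 11.38, 11.39 and 11.22 in Rptor GMPs (0.95 ± 0.11, adjusted p = 1.5e-06). Sdf2l1 rose by 1.04 ± 0.14 and Edem1 by 0.71 ± 0.11 (0.43 averaged over its probe sets). The fall was that of Ddit3, the stress factor CHOP (-0.79 ± 0.14). Lysosome and autophagy genes rose for 15 of 34 and fell for 3 (1 without Rptor CMP replicate 1 or 2), with the sialidase Neu1 at 1.34 ± 0.15.

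Glycolysis genes had more rises than falls, and genes of mitochondria, like all genes tested, more falls than rises. Of 19 glycolysis genes 7 rose and 2 fell (1 fell without Rptor CMP replicate 1, Rptor CMP replicate 2 or Rptor GMP replicate 1). The hexokinase Hk3 rose by 1.10 ± 0.13 and the glucose transporter Slc2a1 by 0.82 ± 0.14 (0.40 averaged over its probe sets), and the phosphofructokinase Pfkm fell by 1.29 ± 0.21. Of 19 genes of the TCA cycle and pyruvate dehydrogenase 8 fell and 2 rose, and the counts were 3 and 0 without Rptor GMP replicate 1 or 2, 4 and 0 without Rptor CMP replicate 2, 6 and 1 when Rptor CMP replicate 1 was dropped and 8 and 0 when replicate 3 was. Of 76 subunits of the respiratory chain and ATP synthase 18 fell and 6 rose, and 11 fell without Rptor GMP replicate 1, and without Rptor GMP replicate 2 the counts were 8 and 3. Cox6b2 had the smallest p of these, with 9.91, 10.28 and 9.85 in CMPs and 8.23, 8.70 and 8.13 in GMPs (-1.66 ± 0.15). Of 71 mitochondrial ribosomal proteins 15 fell and 2 rose, and 9 fell without Rptor GMP replicate 1 or 2. Of all genes 12.5% were higher and 15.4% lower in the fit of all arrays. Without Rptor GMP replicate 2, 1801 of 16638 genes were lower. In that fit the 8 falls among 76 respiratory chain subunits were no larger a share than over all genes.

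The lists of genes for making and degrading proteins are read against 12.5% of all genes higher and 15.4% lower in the fit of all arrays. Over all 16638 genes the calls also dropped when 1 array was left out. They were 1506 higher and 1801 lower without Rptor GMP replicate 2, and 1562 and 1982 without Rptor GMP replicate 1. Without Rptor CMP replicate 2 they were 1605 and 1891. Fewer calls in a list are thus not particular to that list. Of 43 ribosome biogenesis genes 13 fell and 1 rose (8 and 1 without Rptor GMP replicate 2), with the nucleolar protein Nop58 at -0.69 ± 0.13. Of 38 proteasome subunits 15 fell and 1 rose, with the ATPase Psmc5 at -0.80 ± 0.13, and the falls numbered 7 without Rptor CMP replicate 2, 8 without Rptor GMP replicate 1 and 6 without Rptor GMP replicate 2. Of 60 translation factors 15 fell and 4 rose, and the counts were 14 and 2 without Rptor CMP replicate 1, 8 and 2 without Rptor GMP replicate 1 and 10 and 2 without Rptor GMP replicate 2. The initiation factor Eif5b fell by 1.00 ± 0.12, and Eif4ebp2, a translation repressor that mTORC1 inactivates, rose by 0.84 ± 0.17. Of 65 cytosolic ribosomal proteins 5 fell and 4 rose, with 3 falls without Rptor CMP replicate 2 or 3, 2 without Rptor GMP replicate 1, 1 without Rptor CMP replicate 1 and 0 without Rptor GMP replicate 2. Their array means were 9.17 to 9.21 in CMPs and 9.16 to 9.18 in GMPs.

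Other metabolic and stress genes gave single large changes. Fads2, a desaturase of polyunsaturated fatty acids, read 9.68, 9.85 and 9.50 in Rptor CMPs and 6.72, 6.82 and 6.55 in Rptor GMPs, a fall of 2.98 ± 0.18 (adjusted p = 1.22e-10). Sqle, an enzyme of cholesterol synthesis, fell by 1.58 ± 0.17, while Fdps, earlier in that pathway, rose by 0.83 ± 0.12. The asparagine synthetase Asns read 9.54, 9.77 and 9.26 in CMPs and 7.58, 7.78 and 7.62 in GMPs (-1.86 ± 0.13, adjusted p = 7.43e-10). The metallothionein Mt2 fell by 2.21 ± 0.23. Of 28 interferon-stimulated genes 9 fell and 1 rose (0 without Rptor CMP replicate 1 or 3 or Rptor GMP replicate 1 or 2). Over all genes 15.4% were lower and 12.5% higher in the fit of all arrays. Among the falls were Usp18, which dampens interferon signalling (-1.04 ± 0.15), and Ifi27 (-0.93 ± 0.14).

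The Rptor step was then set beside the WT step, which shares no array with it. In WT mice 1831 genes (11.0%) were called, 1107 higher in GMPs (6.65%) and 724 lower (4.35%). That split was 944 and 928 after repeated quantile normalization and 1340 and 502 with arrays centred on their median. The number was 1139 without WT CMP replicate 1, 1011 without WT CMP replicate 2, 1136 without WT GMP replicate 1 and 803 without WT GMP replicate 3. Both steps called 1452 genes, which is 31.3% of the Rptor calls and 79.3% of the WT calls, and 1444 of them had the same sign. Of 731 genes called with at least a 2-fold difference in Rptor mice, 711 had the same sign in WT. Across genes the SD of the step was 0.481 in Rptor and 0.321 in WT, and 91 genes in WT rose and 125 fell at least 2-fold.

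The test of the difference between the steps called 416 of 16638 genes (2.50%), 111 with the more positive step in Rptor mice (0.667%) and 305 with the more negative one (1.83%). The split was 169 and 276 after repeated quantile normalization and 74 and 444 with arrays centred on their median. The number fell to 228 without Rptor CMP replicate 2, 245 without WT GMP replicate 2, 265 without WT CMP replicate 3 and 276 without WT GMP replicate 1, and rose to 647 without Rptor CMP replicate 3, 654 with the 12 freshly sorted arrays alone and 1980 with array weights. So the size of this set depends on single arrays, and the direction of the majority does not in any of these settings.

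**Figure D5:**
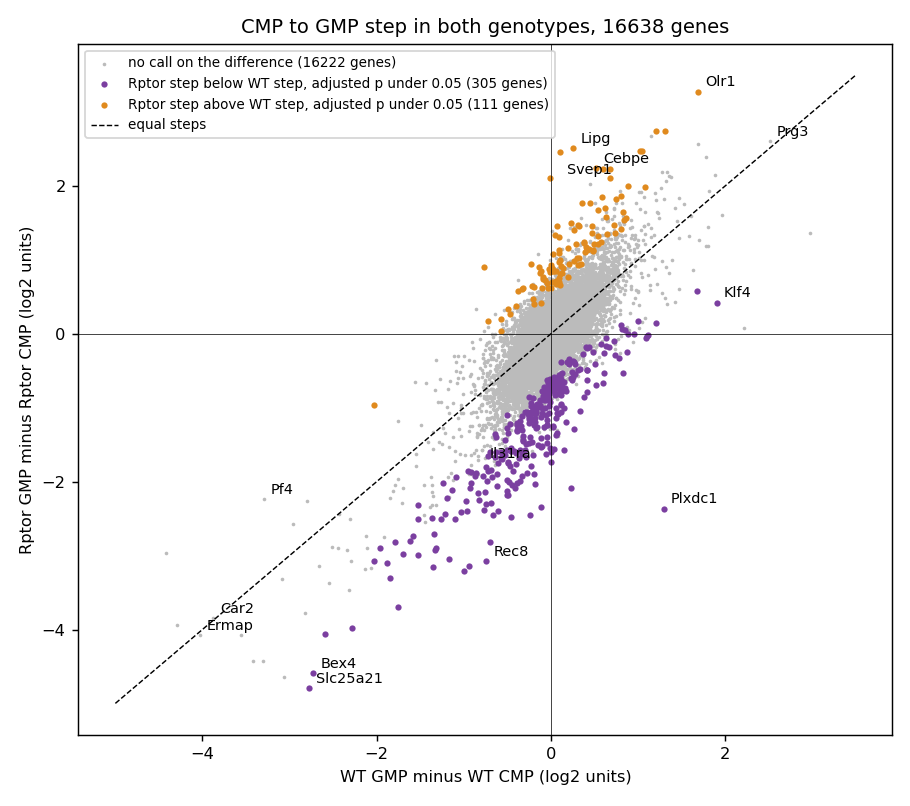
Difference between GMP and CMP arrays (log2 units) in WT mice (x axis) and Rptor mice (y axis) for 16638 genes, coloured where the 2 differences themselves differ at a limma adjusted p under 0.05 (111 genes above and 305 below), with the line of equal steps. Slc25a21 and Bex4 lie among the falls that are larger in Rptor mice, Ermap and Car2 near the line, and Plxdc1 falls in Rptor mice and rises in WT mice.

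Among the genes with a steeper rise in Rptor mice, Svep1, a matrix protein, had the largest difference. It read 5.41, 5.91 and 5.72 in Rptor CMPs and 7.99, 8.29 and 8.13 in Rptor GMPs, against 4.45, 4.52 and 4.32 in WT CMPs and 4.45, 4.46 and 4.70 in WT GMPs. The difference of the steps was 2.36 ± 0.21 (adjusted p = 1.99e-06), or 1.22 averaged over its probe sets. Lipg rose by 2.52 in Rptor mice and differed by 0.26 in WT (difference 2.26 ± 0.36, adjusted p = 0.00099). Slco4c1, a transporter, rose by 2.11 in Rptor mice and differed by -0.01 in WT (2.12 ± 0.43).

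Several of these genes ended at a like level in the GMPs of both genotypes and differed in the CMPs. Cebpe read 8.87, 8.80 and 8.90 in WT GMPs against 8.79, 9.16 and 8.50 in Rptor GMPs, while its WT CMP arrays read 8.18, 8.15 and 8.67 and its Rptor CMP arrays 6.53, 6.93 and 6.27. Its step differed by 1.72 ± 0.25 (adjusted p = 0.000303). Olr1 read 8.79, 9.14 and 9.41 in WT GMPs and 6.92, 7.27 and 8.08 in WT CMPs, with a step difference of 1.59 ± 0.33. The others of largest positive difference were Gpc3 (1.67), Thbs1 (1.63), Prom1 (1.55), Abca13 (1.53) and Mgam (1.44), of which the calls of Abca13 (0.061 without Rptor CMP replicate 1 and 0.054 without WT GMP replicate 2), Thbs1 (8 of the 12 single arrays, highest adjusted p 0.1152 without WT GMP replicate 2) and Mgam (9 of the 12, highest 0.09725 without Rptor CMP replicate 1) were lost in leave-one-out fits.

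Plxdc1, a transmembrane protein, had the largest difference in the other direction. It read 7.82, 8.02 and 7.44 in Rptor CMPs and 5.18, 5.70 and 5.31 in Rptor GMPs, and it moved the other way in WT, from 6.52, 6.62 and 6.47 to 7.90, 7.85 and 7.75. The steps of -2.36 and 1.30 differed by -3.66 ± 0.22 (adjusted p = 2.58e-09). It was 1 of 8 genes called in both steps with opposite signs. Phlpp2, a phosphatase of the kinase Akt (-0.53 and 0.83), Disc1 (-0.66 and 0.60), the amino acid transporter subunit Slc7a7 (-0.69 and 0.52) and Cd180 (-0.53 and 0.61) were others. The fall of Phlpp2 in Rptor mice (adjusted p = 0.0404) was lost without single arrays, among them Rptor CMP replicate 2 (0.101).

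The other genes among the 10 of largest negative difference had various patterns. Rec8, a cohesin subunit of meiosis, read 8.37, 9.04 and 8.44 in Rptor CMPs, 5.27, 6.31 and 5.06 in Rptor GMPs, 5.63, 5.77 and 5.43 in WT CMPs and 4.93, 4.76 and 4.91 in WT GMPs (-2.33 ± 0.31, adjusted p = 0.000159). The chloride channel Ano1 read 6.40, 7.47 and 5.43 in Rptor CMPs and between 3.64 and 4.74 on all other freshly sorted arrays (-2.31 ± 0.43). Pkd1l3 (-2.22), Nxpe4 (-2.22), the water channel Aqp11 (-2.22), the phospholipase Pla2g4c (-2.12), the replication fork gene Radx (-2.02) and Slc25a21 (-2.01) had differences of similar size. Cnn3, an actin-binding protein, differed by -2.20: its CMP arrays were alike in both genotypes, at 6.98 to 7.73, and its GMP arrays were 3.79 to 4.51 in Rptor and 6.30 to 6.59 in WT.

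In the list of G2 and mitosis genes 9 of 37 fell more in Rptor mice and 0 less, with a WT median of -0.05. The count was 5 when either Rptor CMP replicate 1 or replicate 3 of the WT CMPs was dropped, 4 without Rptor CMP replicate 2, 6 to 8 without each other array that is not named here, 16 without Rptor GMP replicate 3 and 23 without Rptor CMP replicate 3. Nusap1 read 9.34, 9.23 and 9.39 in WT CMPs and 9.17, 9.29 and 9.36 in WT GMPs, and its steps differed by -1.18 ± 0.16 (adjusted p = 0.000159). The list means of the WT arrays were 8.71 to 8.74 in CMPs and 8.60 to 8.78 in GMPs. WT CMPs, WT GMPs and Rptor CMPs thus overlapped in the level of these genes, and the Rptor GMP arrays stood below.

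In the list of primary granule and granulocyte progenitor genes 7 of 23 members rose more in Rptor mice and 0 less (5 to 8 when 1 array was left out). The 7 were Fcnb, Clec12a, Igsf6, Slpi, Serpinb1a, Plac8 and Anxa1, the last 3 named after their values were seen. The granule enzymes did not pass the test of the difference, with adjusted p of 0.3037 for Mpo, 0.1679 for Elane, 0.07131 for Prtn3 and 0.175 for Ctsg. Clec12a read 10.06, 10.24 and 10.36 in WT CMPs and 10.75, 10.74 and 10.78 in WT GMPs, and its steps differed by 1.14 ± 0.14 (adjusted p = 0.000118). Secondary granule genes did so in 4 of 22 cases, S100a8 among them (1.29 ± 0.16), and 2 were called without Rptor CMP replicate 1, Rptor CMP replicate 2, Rptor GMP replicate 2 or WT CMP replicate 3, each left out singly. In WT the S100a8 arrays overlapped, with 10.79, 11.13 and 11.12 in CMPs and 10.96, 11.20 and 11.04 in GMPs. On the array means the secondary granule list stayed lower in Rptor GMPs (7.39 to 7.58) than in WT GMPs (7.78 to 8.18), while the primary granule list reached a like level (10.17 to 10.27 and 10.19 to 10.25).

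For some genes of the monocyte path the step was the more negative in Rptor mice. Klf4 read 5.98, 5.95 and 6.01 in WT CMPs and 7.95, 7.88 and 7.82 in WT GMPs, against 5.35, 5.13 and 5.06 and 5.92, 5.67 and 5.21 in Rptor mice. The steps differed by -1.49 ± 0.22 (adjusted p = 0.000375). Csf1r rose by 0.64 in WT and its steps differed by -0.69 ± 0.15 (adjusted p = 0.0154), a call lost with repeated quantile normalization (0.0581), cyclic loess (0.0522) and without Rptor CMP replicate 1 (0.0539). For Irf8 the difference did not pass (-0.88, adjusted p = 0.0713). Il31ra, an interleukin-31 receptor chain, fell in Rptor mice and read 8.55 to 8.94 on all WT arrays, with a WT step of 0.01. Its steps differed by -1.74 ± 0.31 (adjusted p = 0.00256).

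Of 33 monocyte and macrophage genes 1 rose more in Rptor mice and 4 less, but 0 less after repeated quantile normalization or cyclic loess and 1 to 3 without single arrays (1 without each of Rptor CMP replicates 1 and 3, Rptor GMP replicates 1 and 2, WT CMP replicate 1 and WT GMP replicates 1 and 2, and 2 without WT CMP replicate 2 or 3). The 1 with the larger rise was Ly6c2 (0.72). For the erythroid list 4 of 27 genes fell more in Rptor mice and 0 less. That count was 1 without Rptor CMP replicate 2 and 9 without Rptor CMP replicate 3 or Rptor GMP replicate 2. Without each other single array it was 2 or 3. On the means of this list every Rptor CMP array (8.25 to 8.97) lay above every WT CMP array. The Rptor GMP arrays (5.73 to 6.47) also lay above the WT GMP arrays (5.35 to 5.51). The larger falls thus did not bring the list to a lower level in Rptor GMPs than in WT GMPs. Kel, Rhag, Ermap, Aqp1, Car2, Rhd and Mfsd2b did not pass the test of the difference, with adjusted p of 0.156 to 0.987, so their steps were not distinguished between genotypes, which does not show that they are equal. Flt3 was the only gene of the receptor list that fell less in Rptor mice (1.07 ± 0.25, adjusted p = 0.021, lost without any of 5 single arrays with at most 0.083), from 8.92, 8.42 and 8.92 to 7.83, 7.69 and 7.86 there, against a WT step of -2.03.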

How the data were processed

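RNA from 20 samples was amplified with the NuGEN WTA Pico v2 kit and hybridised to 1 array each, per the labels' protocols. The deposited values are log2 signals per probe set (1.775 to 13.161), made by the authors with tools of which RMA, Partek 6.6 and limma are listed, without roles, per the submitters' processing notes. They were used without further normalization, and no counts or scanner files were used, so precision rests on how many arrays there are. Of 41345 probe sets, 23521 carry 1 gene symbol, 1814 several and 16010 none, and only those with 1 were used. Each of 22180 genes took its probe set of highest mean over all 20 arrays. The 16638 genes with such a mean above log2 3.86 (the 25th percentile) were tested.

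A linear model with 6 group means on all 20 arrays (14 residual degrees of freedom) was run in limma 3.58.1 (R 4.3.3; lmFit and eBayes), with Benjamini-Hochberg adjustment over 16638 genes. The step is the mean of GMP minus the mean of CMP arrays, and the difference of the steps is a contrast in the same fit. On simulated arrays of the Rptor comparison, run over 16638 genes, 43% of 100 changes of 0.5 log2 units and 92% of 100 changes of 1 unit were called, with 8 false calls. Exact tests used scipy 1.17.1 in Python 3.11.15. Genes named are the 15 largest in each direction among called genes whose groups do not overlap, up to 4 members of smallest p in each list, the 10 largest differences of steps each way, all tested members of the transcription factor and receptor lists, 3 genes of the mTOR complexes and 5 genes of opposite steps. Alternatives covered the filter, the probe set rule, the scaling, the arrays fitted, array weights, a fold threshold, a replicate block and leaving out each array. The comparison and the gene lists were chosen with earlier results of these data known. RefSeq promoter sequences are of GRCm38.p6, and a pattern for replication-dependent histones matched no tested gene.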

Additional observations from a re-analysis of the deposited data

Results flagged for a closer look

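Of the genes named above, 63 had a difference between GMPs and CMPs that itself differed between Rptor and WT mice at a limma adjusted p under 0.05, given here as the Rptor step minus the WT step in log2 units. A more positive step in Rptor mice, called also with any 1 array left out, was found for Svep1 (2.36), Lipg (2.26), Slco4c1 (2.12), Cebpe (1.72), Gpc3 (1.67), Olr1 (1.59), Prom1 (1.55), Fcnb (1.42), Wfdc21 (1.39), S100a8 (1.29), Lax1 (1.22), Clec12a (1.14), Ly6c2 (0.72) and Igsf6 (0.71). A more negative step, called in the same way, was found for Plxdc1 (-3.66), Rec8 (-2.33), Ano1 (-2.31), Pkd1l3 (-2.22), Nxpe4 (-2.22), Aqp11 (-2.22), Cnn3 (-2.20), Pla2g4c (-2.12), Radx (-2.02), Slc25a21 (-2.01), Clca3a1 (-1.94), Bex4 (-1.87), Il31ra (-1.74), Tspo2 (-1.70), Klf4 (-1.49), Abcb4 (-1.47), Phlpp2 (-1.36), Mllt3 (-1.30), Fads2 (-1.28), Disc1 (-1.26), Slc7a7 (-1.21), Nusap1 (-1.18), Eng (-1.17), Sqle (-1.16), Asns (-1.14), Cd180 (-1.14), Cox6b2 (-1.02), Itgb7 (-0.90) and Cenpa (-0.76).

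For 20 of the 63, leaving out at least 1 array ended the call. Those with the more positive step in Rptor mice were Thbs1 (1.63), Abca13 (1.53), Mgam (1.44), Chil3 (1.27), Flt3 (1.07), Ccl9 (0.87), Slpi (0.79), Erg (0.73), Hk3 (0.72) and Fli1 (0.65), and those with the more negative step were H2-Eb1 (-1.23), Il4 (-1.20), Blnk (-1.10), Cenpf (-0.83), Itgb3 (-0.83), Mthfd2 (-0.75), Ddit3 (-0.74), Csf1r (-0.69), Mt1 (-0.65) and Cd24a (-0.60).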

How the results depend on the processing

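The Rptor step called 4639 genes, and 4473 to 4740 under the other filters, scalings, probe set rule and moderation, 4553 with its own 6 arrays and 5475 with the 12 freshly sorted arrays. Array weights gave 7123 genes for the Rptor step, 3995 for the WT step and 1980 for the difference of the steps, with weights of 4.70, 0.82 and 0.52 for the Rptor GMP arrays. A fold of at least 1.5 left 2312 genes for the Rptor step and 837 for the WT step. The 12 freshly sorted arrays alone gave 654 genes for the difference of the steps. Leaving out 1 array gave 3307 to 4895 genes for the Rptor step, 803 to 1551 for the WT step and 228 to 647 for the difference. Of named genes, 225 were called in the Rptor step and 27 lost the call in at least 1 such fit, none of them among the 30 of largest change. For the difference of the steps it was 20 of 63. No named gene's called value changed sign under the alternatives run. Same-numbered Rptor CMP and GMP arrays deviated together weakly (correlations of 0.185, 0.048 and 0.171, each array correlating best with its own number, a hint from the data and not the design), so the numbers were not taken as pairs. With the replicate number as a block in the 12 freshly sorted arrays, 5321 genes were called for the Rptor step, 2178 for the WT step and 623 for the difference. The medians of 5 lists changed sign under some alternative: ATF4, amino acid and one-carbon genes, chemokines, monocyte genes, T and NK cell genes, and Toll-like and C-type lectin receptors. Changes of 0.5 log2 units can be missed, as 43% of them were called in the simulated arrays. The simulation did not vary the number of arrays and changed far fewer genes than were called here. Its spread came from all 6 groups, the cultured ones included. It therefore does not give the share of changes missed in these data.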
